A study of Mus musculus with 6 samples.

Results

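The genes described here are those of the proteasome, together with the deubiquitinases Usp14 and Uchl5 that bind to it. They were picked by symbol, as every Psma to Psmg gene with a number in its name and no pseudogene, plus Usp14 and Uchl5. The rule took 47 of the 32348 gene identifiers in the linear RNA files, and 16 of 11895 listed circular RNAs (circRNAs) came from such genes. One of the 47, Psmc3ip, matched by name only and encodes no proteasome subunit. Another 5 symbols that fit the pattern, Psmb5, Psmd1, Psmd14, Psme3 and Psme2b, had no identifier of their own in the files, and the first 4 of these were found by position and are described separately.

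The proteasome is the protease complex that degrades proteins marked with ubiquitin chains. Its core particle (20S) stacks rings of alpha subunits, which form the gate, on rings of beta subunits, some of which carry the active sites. The regulatory particle (19S) binds ubiquitin chains, removes them and unfolds the substrate with a ring of ATPases. Usp14 and Uchl5 bind the regulatory particle reversibly and trim ubiquitin from substrates, and Usp14 is known to slow degradation. In the brain, loss of Usp14 in the ataxia mouse disturbs synapses, and inducible immunoproteasome subunits are known mainly from glia and immune cells.

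The mice were male C57BL/6 animals, 14 months old and healthy per the labels. For 14 days each received, once a day, dihydrotestosterone (DHT), an androgen, under the skin, or the same dose of medical corn oil. Total RNA labelled as hippocampus gave 6 libraries, 3 from DHT mice (libraries 1 to 3 of that group) and 3 from oil mice, each with 143 to 177 M (mega) mapped reads. The labels call the mice representative and do not say whether a library comes from a single animal, and the p-values below speak only of the spread among these libraries. Of the markers of hippocampal neurons, Neurod6 was listed at 0 in 5 of 6 libraries, and C1ql2 and Spink8 stayed below 0.5 FPKM (fragments per kilobase of transcript and M mapped fragments). Prox1 lay between 1.28 and 2.79 FPKM and Wfs1 between 4.44 and 12.6 FPKM. Markers of striatal neurons were present, with Ppp1r1b at 45.9 to 95.8 FPKM and Drd2 at 6.19 to 10.7 FPKM, while Drd1 was listed at 0 in all 6 libraries. The part that tissue makeup has in the results below was not tested.

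A gene value is the FPKM of a gene's first-exon or last-exon events, whichever sum was larger in that library, so levels of different genes can be compared per length. Of the 47 genes, 43 had a mean of at least 0.5 FPKM and were tested with limma on log2(FPKM + 0.5). A positive log2 fold change means a higher value in DHT libraries. The other 4, Psma8 of the testis core particle, Psmb11 of the thymus, the immunoproteasome gene Psmb9 and Psmc3ip, were below that mean. The value listed for Psmb11, 0.249 FPKM in oil library 1 and 0 in the others, came from first exons outside the RefSeq bounds of the gene.

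As a set, the proteasome genes stood at nearly the same level in both groups, and Usp14 was the member that stood lower in every DHT library than in any oil library. The summed value of the 43 genes was 374, 392 and 376 FPKM in the DHT libraries and 371, 354 and 383 FPKM in the oil libraries. The group means were 380 ± 9.75 and 369 ± 14.7 FPKM (SD, n = 3 each), and the ranges of the groups overlapped. As a share of all gene FPKM the members made up 0.398 ± 0.00818% in DHT and 0.420 ± 0.0179% in oil (SD, n = 3 each). All genes together summed to 94871, 96063 and 95613 FPKM in DHT and to 89596, 87300 and 87148 FPKM in oil. That total was higher in every DHT library than in any oil library, so the share differed in the opposite direction to the members' sum. Such bulk values cannot tell fewer cells of a type from less RNA per cell.

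Of the 43 tested genes, 24 had a higher mean log2 value in DHT and 19 (44.2%) a lower one, while 36.4% of all 11368 tested genes were lower. After centring each library on its median, 22 (51.2%) were lower, against 48.6% of all genes. The median log2 fold change was 0.06 over members and 0.07 over all genes, and -0.01 and 0.01 after centring. No member passed an adjusted p of 0.05 (limma, Benjamini-Hochberg over all genes tested), a threshold that 2 genes, 0.0176% of those tested, passed. At an unadjusted p under 0.05, 1 member was lower (Usp14, background 1.55% of genes) and 1 was higher (Psmc4, background 5.79%).

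The 95% interval of the fold change lay within 1.5-fold in either direction for 32 of 43 members (74.4%), and for 57.1% of all tested genes. Apart from Usp14, the log2 fold changes ran from -0.23 for Psmd11 to 0.43 for Psmb2. Both ends have limits given below: 42.8% of the first-exon signal of Psmd11 lay within its RefSeq bounds, and Psmb2 was low in oil library 1. Over the 6 libraries the coefficient of variation of a member had a median of 12.3%, and it was under 15% in 27 of 43. Only 4 members, Psmb2, Psmb8, Psme2 and Uchl5, differed by 2-fold or more between their lowest and highest library.

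**Figure D1:**
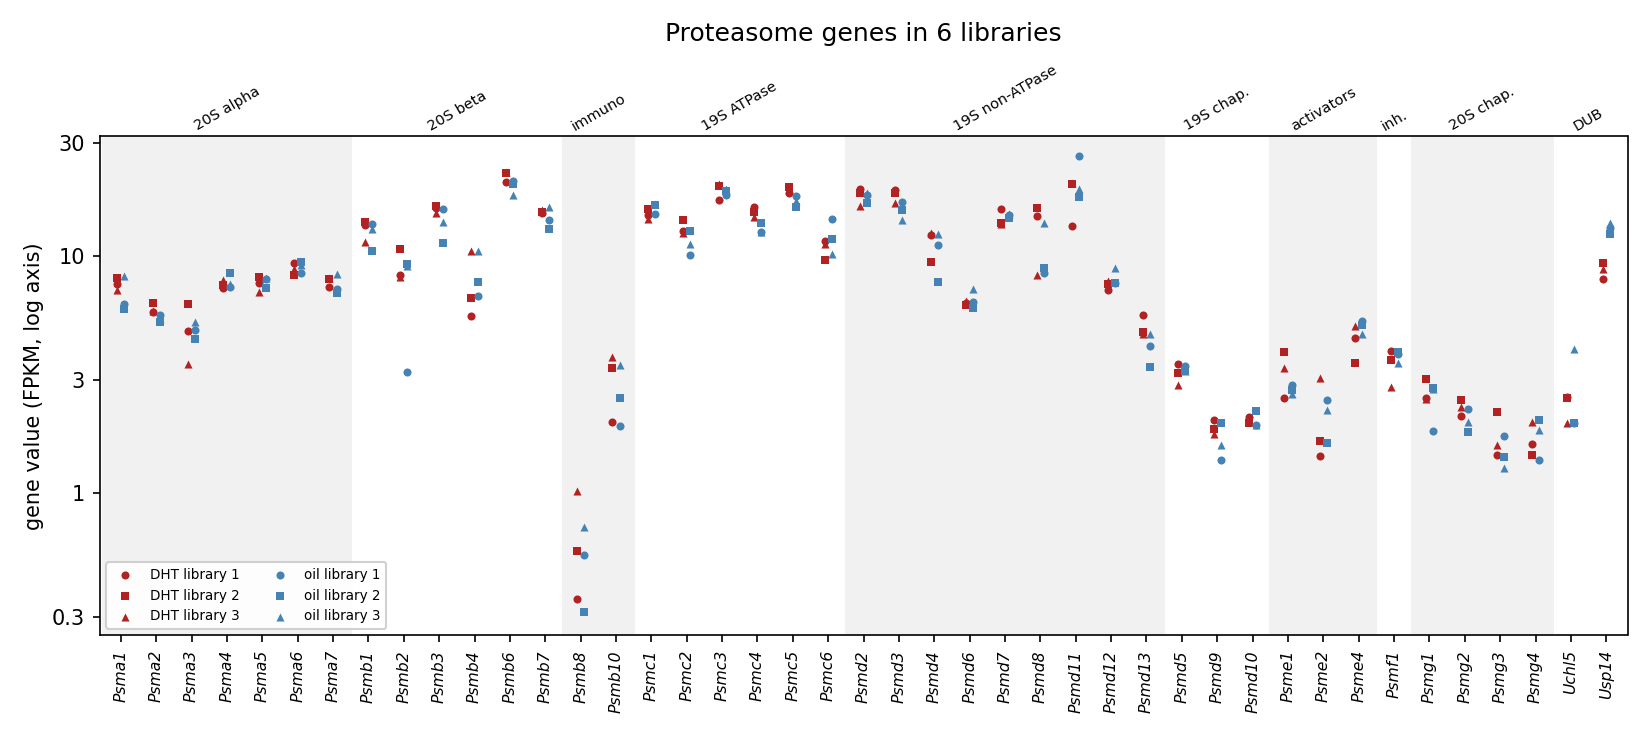
Gene values of the 43 tested proteasome genes in 6 libraries, on a log axis in FPKM, grouped by role (immuno, inducible beta subunits; chap., assembly chaperones; inh., inhibitor; DUB, deubiquitinases). Each symbol is 1 library, red for DHT and blue for oil. Core and ATPase genes sit mostly between 5 and 20 FPKM, the inducible subunits and assembly chaperones lower, and Usp14 is the gene whose red symbols all lie below its blue ones.

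**Figure D2:**
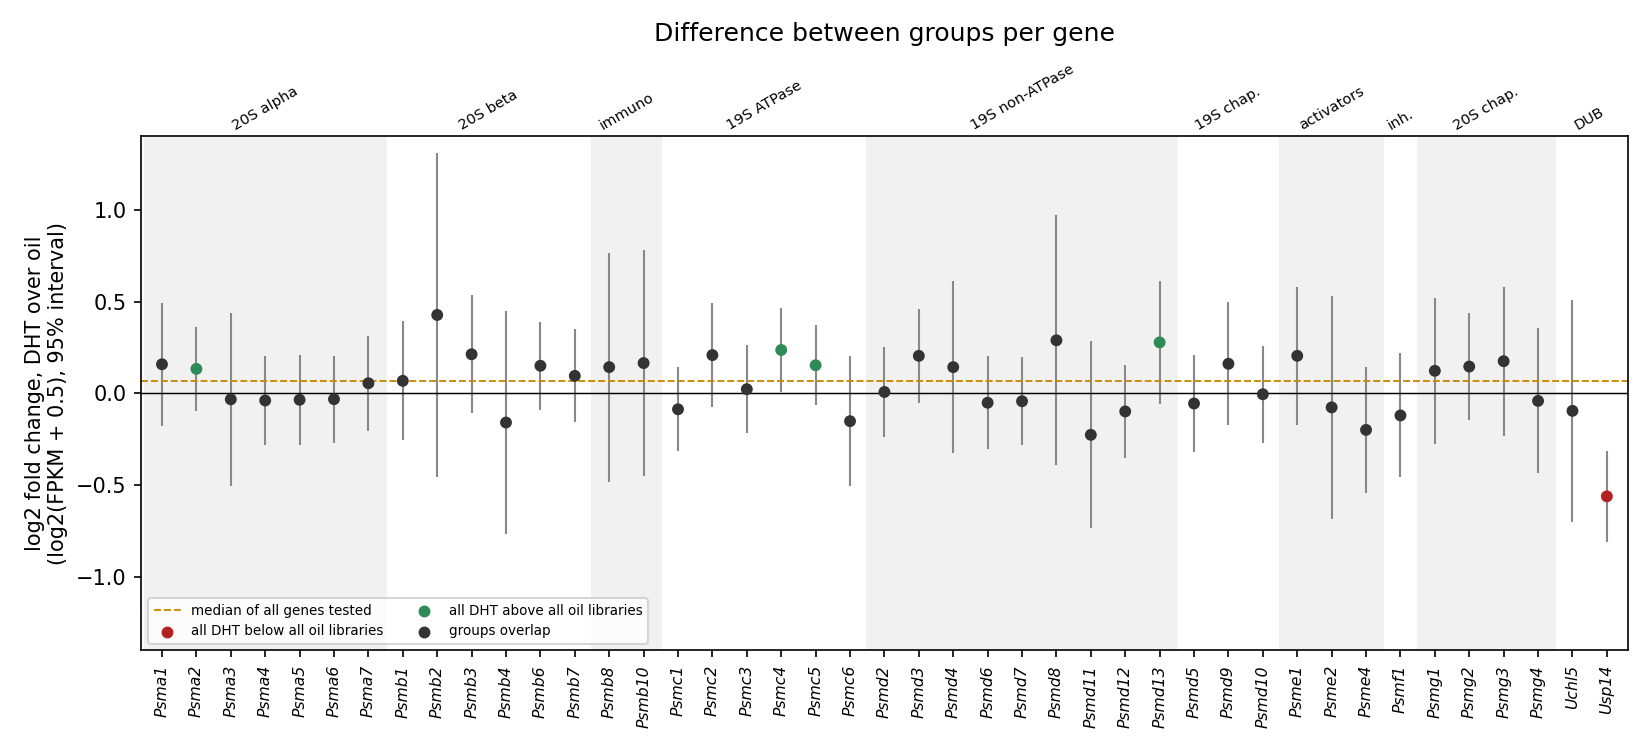
Log2 fold change of DHT over oil for each tested proteasome gene, with its 95% interval from limma. Usp14 (red) is the single gene whose DHT libraries all lie below the oil libraries, for 4 genes (green) they all lie above, and the dashed line is the median of all genes tested, 0.07.

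Usp14, which trims ubiquitin chains at the proteasome, was lower in the DHT libraries by the gene value. It stood at 8.01, 9.36 and 8.78 FPKM in DHT libraries 1 to 3 and at 13.1, 12.4 and 13.7 FPKM in the oil libraries. The groups did not overlap, with means of 8.72 ± 0.674 and 13.1 ± 0.689 FPKM (SD, n = 3 each), and the difference was several times the spread within a group. The log2 fold change was -0.56 with a standard error of 0.10 and a 95% interval from -0.81 to -0.31. Its unadjusted limma p was 0.00109, the 20th smallest of all genes, and its Benjamini-Hochberg adjusted p was 0.565, so it did not pass. The members, Usp14 included, were chosen with earlier results of these data known. The rank, unadjusted p and interval of Usp14 therefore cannot be read as those of a gene picked blind. An exact permutation test of 3 against 3 libraries cannot give less than 0.1. A lower value with no overlap between groups was found for 1 member, Usp14, and for 3.15% of all genes tested.

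Relative to the other members Usp14 was lower too. Divided by the median value of the other tested members, it was 1.09, 1.20 and 1.11 in DHT and 1.88, 1.64 and 1.65 in oil. The other members' median ranged from 7.35 to 7.88 FPKM in DHT and from 7.00 to 8.31 FPKM in oil, so the oil libraries were not set apart by it. With each library centred on its median the log2 fold change of Usp14 was -0.62, and it was again the 1 member lower at an unadjusted p under 0.05, against 2.87% of all genes by limma.

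Usp14 lies on the reverse strand of chromosome 18, and its gene value came almost wholly from 1 first exon and 1 last exon. The first exon, 10029913 to 10030141, was 8.48 ± 0.552 FPKM in DHT and 12.8 ± 0.504 FPKM in oil, a log2 fold change of -0.57. For the last exon, 9993066 to 9996248, the values were 8.48 ± 0.552 and 12.5 ± 0.997 FPKM (SD, n = 3 each), a log2 fold change of -0.54. The limma adjusted p over all events was 0.468 and 0.612. In 5 of 6 libraries both exons carried nearly the same FPKM, so they are no separate measurements. Thoc1, a gene of the THO mRNA export complex on the opposite strand, has a last exon from 9993321 to 9995489, inside that of Usp14. The labels and file headers do not say whether counting used strand, and Thoc1 itself was at 3.96 ± 0.516 FPKM in DHT and 4.03 ± 0.331 FPKM in oil (SD, n = 3 each).

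Transcript forms of Usp14 that skip a cassette exon of 105 bases, 10017991 to 10018095, were lower in DHT. Forms without the exon were at 6.09, 0.811 and 1.35 FPKM in DHT and at 8.58, 8.09 and 9.17 FPKM in oil. Forms with the exon were at 1.89, 8.26 and 7.23 FPKM in DHT and at 4.34, 4.25 and 4.17 FPKM in oil. The skipping forms were thus lower in every DHT library, while for the including forms DHT library 1 was below and DHT libraries 2 and 3 above all oil libraries. The share of Usp14 signal with the exon was 23.7%, 91.1% and 84.3% in DHT and 33.6%, 34.4% and 31.2% in oil. Skipping forms had a log2 fold change of -1.85 with a standard error of 0.59 (limma, unadjusted p 0.0200, adjusted p 0.796). The ratio of including to skipping forms had an adjusted p of 0.903 with limma, and the share differed little among the oil libraries and widely among the DHT libraries.

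Read counts of linear RNA at the circRNAs of Usp14, a separate readout in the deposited circRNA lists, differed in direction between the 3 circRNAs with a value in both groups. At the circRNA from 10004896 to 10016644 they came to 2.79 and 2.35 reads per M mapped reads in DHT libraries 2 and 3 and to 2.31, 1.96 and 2.21 in the oil libraries. DHT library 1 does not list that circRNA and has no value there. At 10012213 to 10018095, listed in DHT library 1 and oil library 1 only, the values were 2.19 and 2.75, and at 10016541 to 10024679 they were 3.23 and 3.94 in the same libraries. DHT was thus lower at these 2, with 1 library a group, and higher at the first, without DHT library 1. The median over 1538 circRNAs listed in all libraries lay between 0.962 and 1.02 of the average library on this scale, so the libraries were on one scale. Neither labels nor file headers say how these linear reads were counted, and they cover single junctions, so which readout is nearer to the amount of Usp14 RNA was not tested.

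**Figure D3:**
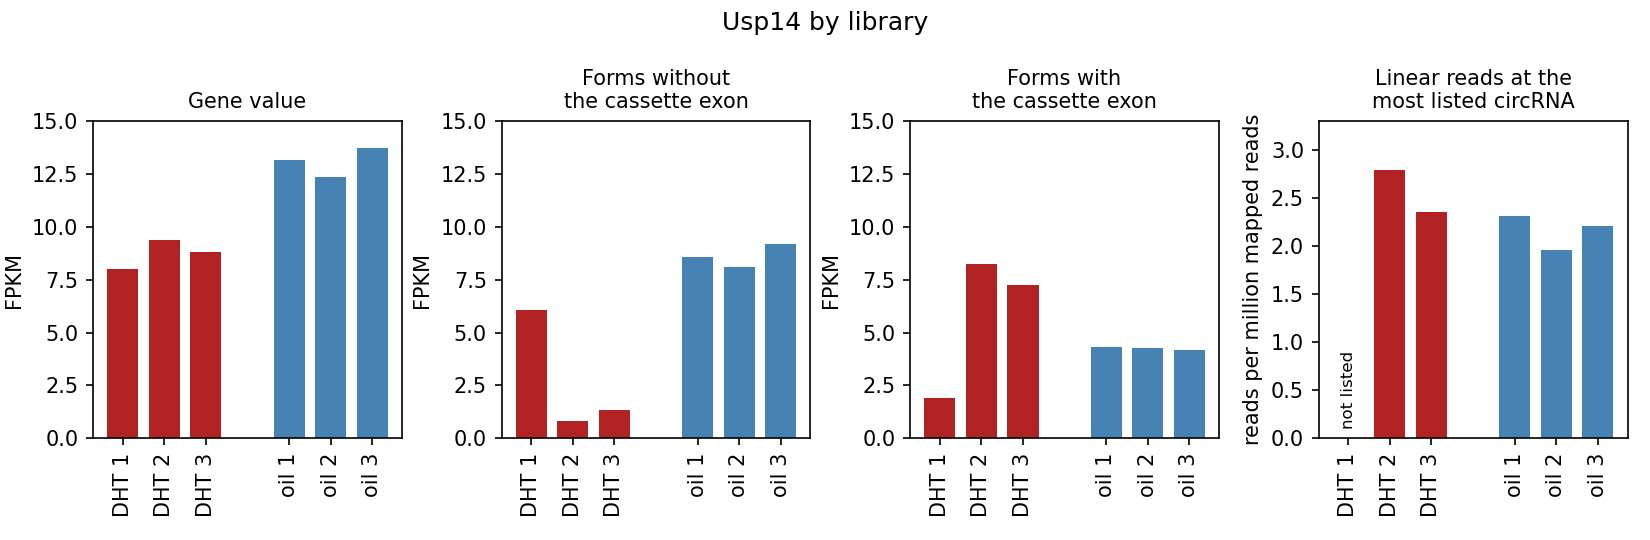
Usp14 in each library, DHT in red and oil in blue: the gene value, transcript forms without and with the cassette exon (all in FPKM), and linear reads at its most often listed circRNA per M mapped reads. Bars are single libraries and start at 0. The gene value and the skipping forms are lower in all 3 DHT libraries, while the linear reads of DHT libraries 2 and 3 are above all 3 oil libraries, and DHT library 1 has no value there.

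Uchl5, the other reversibly bound deubiquitinase, differed between the group means by less than its spread. Its values were 2.55, 2.52 and 1.98 FPKM in DHT and 1.98, 1.97 and 4.04 FPKM in oil. Oil library 3 was the highest and the other 5 lay close together. The log2 fold change was -0.10 with a 95% interval from -0.70 to 0.51, and 0.20 without oil library 3. Psmd14, the deubiquitinase built into the regulatory particle, is given below with the genes found by position.

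Of the alpha subunits that form the gate of the core particle, Psma1 to Psma7 were tested, and 3 were higher and 4 lower in DHT. Their means over the 6 libraries reached up to 8.94 FPKM for Psma6, and the summed value of the ring was 50.4 ± 2.09 FPKM in DHT and 49.5 ± 2.49 FPKM in oil (SD, n = 3 each). Psma2 was 5.83, 6.36 and 5.87 FPKM in DHT and 5.66, 5.26 and 5.40 FPKM in oil. All its DHT libraries were above the oil libraries, by little, and its log2 fold change was 0.13 with a standard error of 0.10 (limma adjusted p 0.747).

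The catalytic subunits of the core particle were among the highest of all members. Psmb6, the caspase-like site, was at 20.4, 22.5 and 22.7 FPKM in DHT and at 20.8, 20.1 and 18.2 FPKM in oil. Psmb7, the trypsin-like site, was at 15.2, 15.4 and 15.6 FPKM in DHT and at 14.1, 13.1 and 16.0 FPKM in oil. The groups overlapped for both, with log2 fold changes of 0.15 and 0.10 and standard errors of 0.10 and 0.11. Over the 6 constitutive beta subunits with an identifier, 5 were higher and 1 was lower in DHT, with sums of 82.7 ± 3.46 and 75.8 ± 4.50 FPKM (SD, n = 3 each). Psmb2, named after its values were seen, had a low value of 3.25 FPKM in oil library 1 and 8.18 to 10.7 FPKM in the others.

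The inducible subunits that replace the catalytic ones in the immunoproteasome were far lower. Psmb8, which takes the place of Psmb5, was at 0.357, 0.570 and 1.02 FPKM in DHT and at 0.545, 0.314 and 0.715 FPKM in oil. Psmb9, which takes the place of Psmb6, was at 0.335, 0.372 and 0.384 FPKM in DHT and at 0.226, 0.241 and 0.854 FPKM in oil, under the mean needed for a test. Psmb10, the counterpart of Psmb7, was at 2.00, 3.36 and 3.75 FPKM in DHT and at 1.92, 2.52 and 3.47 FPKM in oil. In all 3 the groups overlapped, and library 3 of each group was the highest. Psmb8 had a log2 fold change of 0.14 with a 95% interval from -0.48 to 0.77, and it was -0.08 without DHT library 3 and -0.01 without oil library 2. For Psmb10 the log2 fold change was 0.17, from -0.45 to 0.78, and -0.01 without oil library 1. Microglial markers did not follow that order in DHT. C1qa was at 13.4, 22.2 and 15.2 FPKM in DHT and at 14.1, 11.3 and 21.8 FPKM in oil. C1qb and P2ry12 were likewise highest in DHT library 2 and, among oil libraries, in oil library 3. Cx3cr1 was listed at 0 in 5 of 6 libraries. The 5 markers summed to 35.3 to 53.7 FPKM in DHT and 30.8 to 48.0 FPKM in oil. The part of such cells in these values was not tested.

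The promoter windows of 2 such pairs are shown because the members of a pair fill the same active site at very different levels. Each runs from 250 bases before to 50 bases after the RefSeq start. Letters are 5′ to 3′ on the strand of the gene, on the GRCm38.p6 build. Capitals mark matches to TGANNNNGC, either strand, used here as a loose pattern for the core of the antioxidant response element. Through that element Nfe2l1 and Nfe2l2 are known to raise subunit genes.
Psmb5, chr14:54617946-54618245, reverse strand: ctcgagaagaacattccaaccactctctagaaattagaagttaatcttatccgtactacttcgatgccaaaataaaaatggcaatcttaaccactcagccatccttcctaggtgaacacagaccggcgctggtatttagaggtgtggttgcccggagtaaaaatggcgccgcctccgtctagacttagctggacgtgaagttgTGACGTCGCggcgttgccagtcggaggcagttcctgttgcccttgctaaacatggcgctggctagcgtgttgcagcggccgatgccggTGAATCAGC
Psmb8, chr17:34197945-34198244, forward strand: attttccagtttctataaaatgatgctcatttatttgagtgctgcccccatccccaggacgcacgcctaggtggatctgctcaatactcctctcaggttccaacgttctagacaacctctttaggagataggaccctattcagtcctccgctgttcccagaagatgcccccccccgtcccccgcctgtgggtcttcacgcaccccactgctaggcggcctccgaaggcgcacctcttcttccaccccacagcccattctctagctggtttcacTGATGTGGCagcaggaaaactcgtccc
Psmb6, chr11:70525107-70525406, forward strand: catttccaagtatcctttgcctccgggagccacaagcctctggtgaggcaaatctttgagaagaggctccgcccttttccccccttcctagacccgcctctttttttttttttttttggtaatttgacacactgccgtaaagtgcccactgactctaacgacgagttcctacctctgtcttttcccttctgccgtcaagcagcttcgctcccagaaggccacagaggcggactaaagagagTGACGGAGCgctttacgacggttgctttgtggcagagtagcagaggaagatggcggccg
Psmb9, chr17:34187281-34187580, reverse strand: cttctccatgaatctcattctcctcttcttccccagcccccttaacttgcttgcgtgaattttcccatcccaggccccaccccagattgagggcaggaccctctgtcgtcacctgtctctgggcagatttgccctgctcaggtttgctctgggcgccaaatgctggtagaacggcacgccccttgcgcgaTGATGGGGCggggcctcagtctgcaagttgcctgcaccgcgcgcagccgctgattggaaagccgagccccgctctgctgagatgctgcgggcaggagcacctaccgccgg

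The window of Psmb5 matches the loose pattern 2 times and each of the other windows 1 time. The pattern leaves the base after TGA open. That base is C in Psmb6 and in 1 of the 2 Psmb5 matches, A in the other, and T in Psmb8 and Psmb9. Whether constitutive and inducible genes share a stricter core was thus not tested. Of the pair not shown, Psmb10 had a window with 0 matches to the pattern, and for Psmb7 no RefSeq window was found. RefSeq windows were matched for 42 of 51 symbols asked for, 45 windows in all. Usp14, Psma8, Psmb1, Psmb2, Psmb7, Psmc3, Psmd3, Psmd7 and Psmg2 had no matched window, so the shares below leave them out. The loose pattern was in 27 of these 45 (60.0%) and in 41.3% of all 32851 windows of the same length. A core of the interferon response (GAAANNGAA, either strand) was in 7 of 45 (15.6%) and in 8.56% of all windows, and in none of the 4 printed above. The CCAAT box was in 15 of 45 (33.3%) and in 37.4% of all windows. The 3 motifs can overlap, and a match is a description of letters and no evidence of a bound factor.

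In the regulatory particle, the 6 ATPases unfold substrates. Their sums were 91.1, 94.2 and 91.9 FPKM in DHT and 88.1, 89.7 and 86.7 FPKM in oil, and 4 of the 6 were higher in DHT. Psmc4 was at 16.2, 15.4 and 14.6 FPKM in DHT and at 12.6, 13.7 and 12.6 FPKM in oil. Its groups did not overlap, and its log2 fold change was 0.24 with a standard error of 0.10 (limma, unadjusted p 0.0445, adjusted p 0.658). After centring the libraries it was 0.18 with an unadjusted p of 0.126 by limma, and no member was then higher at a p under 0.05, against 3.16% of all genes. Without centring, leaving out DHT library 2 or oil library 1 also gave 0 members higher at that p. Psmc4 thus did not pass in those fits. Counts above 0, with another library left out, are over all members and do not say whether Psmc4 passed. The log2 fold change of Psmc4 itself was lowest without DHT library 1, at 0.20 with a standard error of 0.11. It was 0.22 (0.11) without oil library 3 and highest without oil library 2, at 0.28 (0.11). Psmc5 was at 18.5, 19.5 and 19.0 FPKM in DHT and at 17.9, 16.1 and 17.1 FPKM in oil, again with no overlap, a log2 fold change of 0.15 and an adjusted p of 0.705 by limma.

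Among the 9 non-ATPase subunits with an identifier, which bind ubiquitin and hold the particle together, 5 were higher and 4 were lower in DHT. The lower ones include Psmd11, whose gene value takes in a neighbouring gene, as given below. Psmd13 was at 5.62, 4.76 and 4.70 FPKM in DHT and at 4.15, 3.41 and 4.67 FPKM in oil. The DHT libraries were above all oil libraries, but the closest values were nearly equal, and its log2 fold change was 0.28 with a standard error of 0.14 (limma adjusted p 0.676). Psma2, Psmc4, Psmc5 and Psmd13 were the 4 members (9.30% of those tested) whose lowest DHT library exceeded the highest oil library, against 12% of all genes. Psmd8, named after its values were seen, varied within both groups, at 14.8, 15.9 and 8.28 FPKM in DHT and at 8.50, 8.88 and 13.8 FPKM in oil.

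Proteasome activators open the gate of the core particle. Psme1 was at 2.51, 3.91 and 3.38 FPKM in DHT and at 2.85, 2.72 and 2.62 FPKM in oil. Psme2, its partner in the interferon-induced ring, was at 1.44, 1.66 and 3.05 FPKM in DHT and at 2.47, 1.63 and 2.24 FPKM in oil. The groups overlapped for both, with a log2 fold change of 0.20 (standard error 0.16) for Psme1 and -0.08 (0.25) for Psme2. The difference between the partners was not tested. Psme1 ran from 0.08 without DHT library 2 to 0.36 without DHT library 1. Psme2 was at 0.09 without DHT library 1 and 0.02 without DHT library 2 or oil library 1, so both were then above 0. The nuclear activator Psme4 was at 4.37 ± 0.774 FPKM in DHT and 5.04 ± 0.323 FPKM in oil, and the inhibitor Psmf1 was at 3.46 ± 0.606 and 3.78 ± 0.228 FPKM (SD, n = 3 each).

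Assembly chaperones, which build the particles and then leave, stood below the tested constitutive subunits of the rings they build. Those of the core particle, Psmg1 to Psmg4, had means from 1.61 to 2.56 FPKM, and those of the regulatory particle, Psmd5, Psmd9 and Psmd10, had means from 1.76 to 3.25 FPKM. In DHT 3 of the 4 core chaperones were higher, and 1 of the 3 regulatory chaperones was. None of these 7 had an unadjusted p under 0.05.

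Of the genes without an identifier, 4 had a first-exon event at their RefSeq start inside a locus listed under a neighbour's name. Psmb5, the chymotrypsin-like site, was listed under Mir686, with a first exon on chromosome 14 from 54617794 to 54618008. It was at 16.0, 13.1 and 14.5 FPKM in DHT and at 15.5, 11.5 and 14.4 FPKM in oil, beside Psmb7 in level. The groups overlapped, and its log2 fold change was 0.08 with a standard error of 0.15. Psmd1, a large scaffold of the regulatory particle, was listed under Armc9 (chromosome 1, 86064387 to 86064805), at 14.9, 17.2 and 14.1 FPKM in DHT and 12.9, 14.0 and 14.3 FPKM in oil. Psmd14 was listed under Tbr1 (chromosome 2, 61711694 to 61711873), at 6.19, 6.66 and 6.86 FPKM in DHT and 7.39, 5.11 and 2.86 FPKM in oil. The DHT values of Psmd14 lay within the wide range of its oil values.

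Psme3, a nuclear activator that works without ubiquitin, was the one of these 4 whose groups did not overlap. Listed under Aoc2 (chromosome 11, 101316213 to 101316488), its first exon was at 15.3, 17.1 and 16.2 FPKM in DHT and at 12.3, 7.47 and 12.8 FPKM in oil. All 3 DHT libraries were above all 3 oil libraries, which was so for 9.86% of first-exon events tested. The log2 fold change was 0.59 with a standard error of 0.22 (limma over events, unadjusted p 0.0333, adjusted p 0.796). It was a larger difference than that of any member tested by gene value on the higher side, and the events of this locus cannot be tied to Psme3 by identifier.

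The value of Psmd11, a subunit tied to proteasome assembly, needed the same care. Its locus took in the neighbouring zinc-finger gene Zfp207, and 42.8% of its first-exon signal lay within the RefSeq bounds of Psmd11. The gene value was at 13.4, 20.2 and 20.4 FPKM in DHT and at 26.3, 17.7 and 19.2 FPKM in oil, the lowest log2 fold change among members after Usp14. Its own first exon (chromosome 11, 80428615 to 80428755) was at 9.16, 6.65 and 9.73 FPKM in DHT and at 7.82, 6.59 and 6.98 FPKM in oil. That exon had a log2 fold change of 0.23, opposite in sign to the -0.23 of the gene value, while the first exon of Zfp207 had -0.60. Zfp207 was at 3.96, 13.0 and 10.4 FPKM in DHT and at 17.3, 10.4 and 11.3 FPKM in oil, so DHT library 1 and oil library 1 were the extremes of both it and the gene value.

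**Figure D4:**
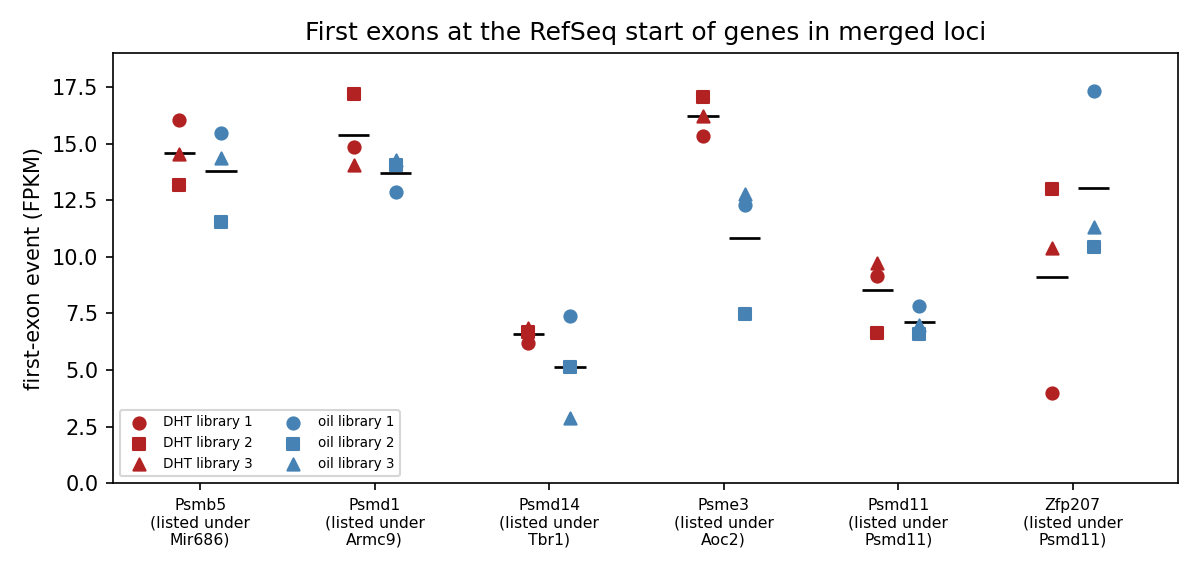
First-exon events, in FPKM, at the RefSeq start of 4 proteasome genes listed under a neighbour's name and of the merged genes Psmd11 and Zfp207. Symbols are libraries (DHT red, oil blue) and black bars are group means. Only for Psme3 is the lowest DHT library above the highest oil library, and the Zfp207 values of library 1 of each group lie furthest apart.

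Over all deposited exon and splicing events of the 47 genes, 234 of 616 had a mean of at least 0.5 FPKM and were tested. None passed an adjusted p of 0.05 in limma, against 0.0408% of all events. At an unadjusted p under 0.05 there were 6 (2.56%), against 5.99% of all events, and 25 had no overlap between groups, against 12.9% of all events. The 6 were the first exon, the last exon and the skipping forms of Usp14, and 1 event each of Psmg1, Psmd11 and Psmd13.

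Paired forms with and without an exon or intron could be compared at 12 places in 10 genes. One ratio, at a cassette exon of 107 bases of the chaperone Psmg1 (chromosome 16, 95989492 to 95989598), had an unadjusted p under 0.05 in limma, where 5.35% of all such ratios did (adjusted p 0.885). The share with the exon was 100% in the 3 DHT libraries and in oil library 1, and 33.8% and 36.8% in oil libraries 2 and 3. Forms with the exon were at 2.52, 3.02 and 2.49 FPKM in DHT and at 1.83, 0.933 and 1.01 FPKM in oil. Oil library 1 thus sat with the DHT libraries in share, and the gene value of Psmg1 overlapped between groups. For the chaperone Psmd5 a cassette exon of 145 bases was in 66.9%, 76.6% and 81.6% of forms in DHT and in 100%, 90.9% and 82.4% in oil. Psmd5 was the 1 place of 12 with no overlap, against 9.43% of all such shares, and its limma adjusted p was 0.900.

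Circular RNAs form by back-splicing, in which the end of an exon is joined to the start of the same or an earlier exon, and each is counted by reads across that junction. The 16 circRNAs held 309 junction reads over the 6 libraries and came from 7 genes, Psmd1 included, and 41 of the 47 genes had no listed circRNA. Psmd2 gave 90 reads, Psmd1 60, Usp14 53, Psma6 49, Psmc6 31, Psmb1 23 and Psme4 3. Per library the sum was 50, 48 and 52 reads in DHT and 57, 52 and 50 reads in oil. A circRNA that a library does not list counts as 0 and can hold 1 read. Only 3 of the 16 were listed in all 6 libraries and 7 in a single library, so most were near the limit of detection.

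The 6 circRNAs with at least 20 reads were tested with edgeR's quasi-likelihood test. All 6 had a Benjamini-Hochberg adjusted p of 0.996, and none had an unadjusted p under 0.05, against 3.13% of all circRNAs. The circRNA of Psmd2, a scaffold of the regulatory particle (chromosome 16, 20656543 to 20657609), had 17, 17 and 17 reads in DHT and 6, 18 and 15 in oil. Oil library 1 alone was low, and the log2 fold change of 0.26 became -0.09 without it. Linear reads at the same junctions were few, 0.0378 to 0.149 per M mapped reads, although Psmd2 was at 16.2 to 19.1 FPKM.

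The circRNA of Psma6 (chromosome 12, 55407469 to 55414498) was the 1 of 6 whose groups did not overlap, against 11.1% of all circRNAs tested. It had 6, 6 and 4 reads in DHT and 10, 8 and 8 in oil. Per M junction reads, with library sizes scaled by edgeR's TMM factors, these were 107 ± 17.2 and 189 ± 15.6 (SD, n = 3 each). The log2 fold change was -0.80 with a standard error of 0.56. Linear reads at its ends did not follow, at 3.47, 3.57 and 3.20 per M mapped reads in DHT and 3.28, 3.18 and 3.20 in oil. The gene value of Psma6 was 8.84 ± 0.493 FPKM in DHT and 9.04 ± 0.487 FPKM in oil (SD, n = 3 each).

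The main circRNA of Usp14 (10004896 to 10016644) had 0, 4 and 5 reads in DHT and 14, 2 and 6 in oil. Oil library 1 held the highest and DHT library 1 none, and the groups overlapped, with a log2 fold change of -1.31 and a standard error of 1.04, which was -0.72 without DHT library 1 and -1.92 without DHT library 3. All 4 Usp14 circRNAs together had 11, 8 and 5 reads in DHT and 21, 2 and 6 in oil. For Psmd1 the tested circRNA had 11, 0 and 7 reads in DHT and 4, 11 and 13 in oil. That of Psmc6 had 5, 6 and 8 in DHT and 5, 5 and 2 in oil, and that of Psmb1 had 0, 4 and 5 in DHT and 4, 8 and 0 in oil. In these 4 the groups overlapped, and standard errors of the log2 fold change ran from 0.80 to 1.46.

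**Figure D5:**
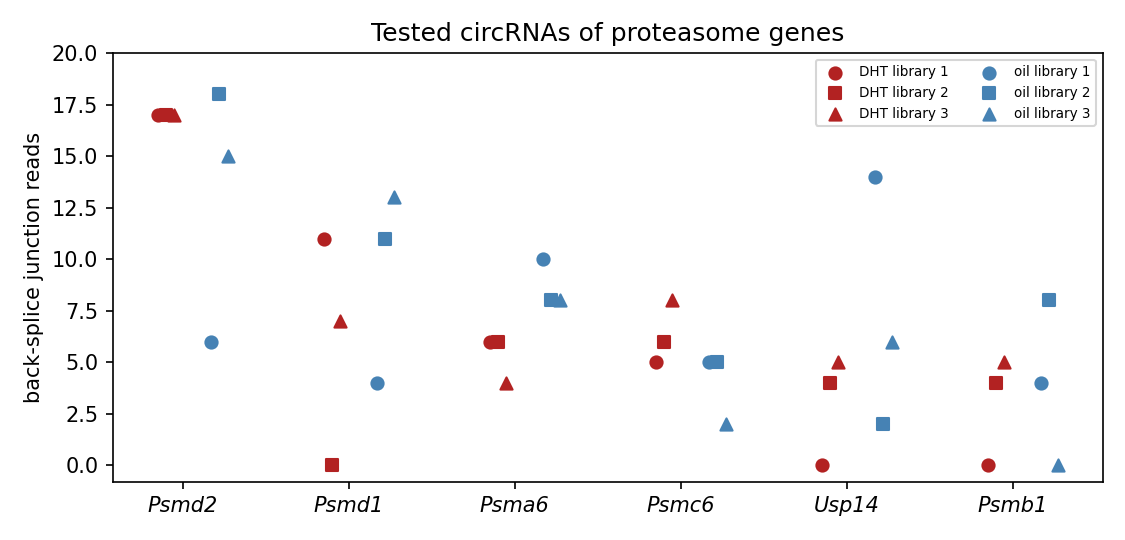
Back-splice junction reads of the 6 tested circRNAs of proteasome genes in each library (DHT red, oil blue), an unlisted circRNA drawn at 0. All counts are at or below 18 reads, and only at Psma6 do the DHT and oil libraries not overlap.

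Of the other genes of the pathway, 49 of 54 had a value and 47 were tested, 29 higher and 18 lower in DHT, where 36.4% of all genes were lower. None passed an adjusted p of 0.05 in limma, while at an unadjusted p under 0.05 there were 2 higher (5.79% of all genes) and 1 lower (1.55% of all genes). Rps27a, which encodes a ubiquitin fused to a ribosomal protein, was at 9.89, 8.61 and 7.64 FPKM in DHT and at 14.9, 14.6 and 12.9 FPKM in oil. Its groups did not overlap, and the log2 fold change was -0.67 with a standard error of 0.13 (limma adjusted p 0.565). Uba1, the enzyme that activates ubiquitin, was at 32.7, 36.2 and 34.4 FPKM in DHT and 32.3, 27.5 and 25.1 FPKM in oil, a log2 fold change of 0.28 with a standard error of 0.12 (limma adjusted p 0.658). The DHT libraries of Uba1 were above its oil libraries, by little at the closest values.

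Nfe2l1, the transcription factor that raises subunit genes when proteasome activity is short, was at 43.8, 32.1 and 32.7 FPKM in DHT and at 32.3, 31.9 and 37.0 FPKM in oil. The groups overlapped, and its log2 fold change was 0.09. In its list of 7 regulators of subunit transcription, 6 were tested, 5 were higher and 1 was lower. Of 4 tested proteasome parts outside the naming rule (Adrm1, Sem1, Pomp and Ecpas), 3 were higher and 1 was lower. Among shuttle factors and p97 genes 4 of 8 were higher, among ubiquitin-activating enzymes and ligases 4 of 7, among other deubiquitinases 7 of 11 and among antigen-processing genes 4 of 8. None of these lists had a member with a lower value at an unadjusted p under 0.05.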

How the data were processed

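The members and gene lists were chosen with earlier results of these data known. FPKM values per first-exon, last-exon and splicing event were deposited by the authors, per the file headers. Gene values were computed from them as the larger of the first-exon and last-exon sums of a locus, in each library, added over loci that share an identifier. Back-splice junction read counts and linear read counts were deposited by the authors for circRNAs of at least 2 reads in a library. The deposited score is SRPBM (spliced reads scaled to mapped reads) rounded down, per the labels' protocols and the values, and served only to work out mapped reads, which matched 100% of scores. The submitters' processing notes name bcl2fastq 2.17.1.14, cutadapt, HISAT2 2.0.1, BWA and the build mm9, with no roles. Coordinates match GRCm38 in RefSeq and are given as such. Which tool called circRNAs, assembled loci or gave FPKM is not given in the sources.

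For genes and events averaging 0.5 FPKM or more, limma 3.58.1 in R 4.3.3, with a trended empirical Bayes prior, compared the groups on log2(FPKM + 0.5). Fold changes on that scale understate the change of low genes, and an exact 0 can be a failed estimate. Ratios of paired splice forms were tested with limma where the forms averaged at least 0.5 FPKM each and 2 FPKM together, a test added after the data were seen, as were the search by position and the linear reads. circRNAs with at least 20 reads over the 6 libraries (43512 to 55325 junction reads each) went through the quasi-likelihood test of edgeR 4.0.16 with TMM factors and, as an alternative, DESeq2 1.42.0. Adjusted p is Benjamini-Hochberg's over all features of a kind. Tables and plots were made with pandas 2.3.3, numpy 2.4.6 and matplotlib 3.10.9 in Python 3.11.15. The fits were tested on simulated data. Genes given library by library were Usp14 and Uchl5, catalytic and immunoproteasome subunits with Psme1 and Psme2, members with an unadjusted p under 0.05 or no overlap, and pathway genes with an unadjusted p under 0.05 (at most 3 a list) with Nfe2l1 and Rps27a. One such pathway gene is not reported here. Any other gene with values was named after they were seen. Overlapping, antisense and near-identical genes cannot be told apart in such files.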

Additional observations from a re-analysis of the deposited data

How the results depend on the processing

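Over 15 alternatives (pseudocount, filter, centring, exon sums, fullest event, prior without a trend, each library left out) the log2 fold change of Usp14 ran from -0.62 to -0.50, with limma adjusted p from 0.509 to 0.780. It stayed the 1 member lower at an unadjusted p under 0.05 in each. The 2 genes past the adjusted p became 1 with a pseudocount of 0.1 or a mean of at least 2 FPKM, 0 with first-exon sums, last-exon sums or the fullest single event, and 0 to 4 with a library left out (0 without DHT library 1 or 3 or oil library 1 or 2, 4 without DHT library 2). Members higher at an unadjusted p under 0.05 numbered 0 with centred libraries or no trend, 2 with the fullest event, and 0 to 2 with a library left out (2 without DHT library 3 or oil library 3). circRNAs past the adjusted p rose from 0 to 6 at a minimum of 6 junction reads and were 0 to 1 with a library left out (1 without DHT library 2), and DESeq2 gave 0 (73 at an unadjusted p under 0.05). Events past it, 32 in all, ran from 18 (without oil library 1) to 37 with a library left out, with 19 without DHT library 1. The cause of these moves was not tested.

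With a library left out, the log2 fold change ran from -0.341 to 0.0950 for Psme2, -0.241 to 0.196 for Uchl5, -0.0782 to 0.334 for Psmb8 and -0.00574 to 0.398 for Psmb10, and for the circRNAs from -0.993 to 0.140 for Psmb1 and -0.0923 to 0.571 for Psmd2, with a reversal of sign in each. With no reversal it ran from 0.0813 to 0.358 for Psme1, and for the circRNAs from -1.92 to -0.725 for Usp14, -1.44 to -0.181 for Psmd1 and 0.295 to 0.782 for Psmc6. The circRNA of Usp14 had too few reads for a test without oil library 1, and that of Psmb1 without DHT library 2 or 3 or oil library 1 or 2. No paired analysis was possible because the groups share no replicate numbers in the labels. Counts of 18 reads or fewer per library limit what can be seen of the circRNAs, and the reads behind single FPKM values are unknown.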
